A study of Mus musculus with 10 samples.

Results

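The developmental regulators T (Brachyury), Eomes, Mixl1, Gsc and Hand1 were followed through 2 histone marks in mouse embryonic stem (ES) cells and their differentiated derivatives. Each gene was represented by a fixed mm9 window, which was chr17:8622001-8640000 for T, chr9:118382001-118400000 for Eomes, chr1:182618001-182632000 for Mixl1, chr12:105704001-105716000 for Gsc and chr11:57638001-57650000 for Hand1. The 5 windows hold 37 bins of 2 kb, of 1164005 autosomal bins with reads. They took between 95 and 160 of the 2252395 reads of an H3K4me3 library. They took between 584 and 1365 reads of an H3K27me3 library. No mm9 annotation was used here, so exons, introns and start sites inside a window were not assigned.

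The marks were measured by chromatin immunoprecipitation and sequencing in 10 libraries, 1 per mark, line and condition, so no value has a replicate. The ES line XT67E1 (strain C3H/Pgk*129) gave both marks in 3 states: undifferentiated, treated with atRA (all-trans retinoic acid) for 4 days, and grown for 10 days into embryoid bodies (EBs). From LF2 and E14, both of strain 129/Ola, came H3K27me3 alone, in undifferentiated cells and EBs of the same age. All lines were grown in serum with LIF on gelatin, and EBs were made by taking LIF away. The H3K4me3 antibody came from Diagenode and the H3K27me3 antibody from T. Jenuwein. The labels give no second culture of any line. Each H3K27me3 library held 8380007 reads in XT67E1 and 4531733 in LF2 and E14. A mark measured over a whole culture cannot tell fewer marked cells from less mark per cell, and EBs are mixtures of cell types. Expression was not measured in these libraries, and cell type markers could not be placed, so the labelled states were not checked against markers.

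H3K4me3 is laid down at promoters that are active or open to activation, and H3K27me3 is written by Polycomb repressive complex 2 at silent developmental genes. In ES cells many lineage regulators are known to carry both marks over CpG-rich promoters, a state called bivalent. T and Eomes are T-box transcription factors. T is needed for the formation of posterior mesoderm and the notochord, and Eomes for the primitive streak, definitive endoderm and trophoblast. Mixl1 and Gsc are homeobox factors of the streak, Gsc being a marker of the organizer. Hand1 is a basic helix-loop-helix factor of trophoblast, lateral and extraembryonic mesoderm and heart.

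The sequences just upstream of the start sites are shown because CpG content is the feature of a promoter most often linked to both marks. RefSeq sequences (GRCm38.p6, another build than that of the reads) were at hand for 3 of the 5 genes, T, Eomes and Gsc, and cover the 250 bases before the start, 5′ to 3′ along the gene, with each CG dinucleotide in capitals. They lie at chr17:8434173-8434422 (plus strand, T), chr9:118477939-118478188 (plus, Eomes) and chr12:104473237-104473486 (minus, Gsc).
T: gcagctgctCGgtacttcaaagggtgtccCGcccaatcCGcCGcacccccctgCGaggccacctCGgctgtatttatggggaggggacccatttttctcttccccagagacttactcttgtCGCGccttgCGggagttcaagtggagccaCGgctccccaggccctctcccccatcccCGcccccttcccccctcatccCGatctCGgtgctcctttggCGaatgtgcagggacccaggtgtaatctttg
Eomes: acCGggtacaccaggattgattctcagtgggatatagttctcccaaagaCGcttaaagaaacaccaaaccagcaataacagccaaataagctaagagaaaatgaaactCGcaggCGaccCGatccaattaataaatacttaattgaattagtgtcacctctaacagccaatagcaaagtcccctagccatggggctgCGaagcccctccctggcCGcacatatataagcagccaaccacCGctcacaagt
Gsc: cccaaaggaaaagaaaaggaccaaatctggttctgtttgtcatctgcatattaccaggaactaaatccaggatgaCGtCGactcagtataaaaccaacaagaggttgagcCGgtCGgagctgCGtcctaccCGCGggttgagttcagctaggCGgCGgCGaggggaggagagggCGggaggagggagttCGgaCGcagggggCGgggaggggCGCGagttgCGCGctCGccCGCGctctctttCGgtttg
The 3 stretches held 14, 8 and 22 CG dinucleotides, against a median of 6 (quartiles 2 and 16) over 32851 upstream stretches of the same length. The observed over expected CG ratio was 0.594 for T, 0.621 for Eomes and 1.06 for Gsc, the last above 96.7% of all such stretches, where the median was 0.374. GC content was 62.8% for T, 46.4% for Eomes and 59.2% for Gsc. Eomes thus had the lowest GC content and the fewest CG dinucleotides of the 3. Exact matches were searched on both strands. The T-box core AGGTGT occurred once, in T from base -14 to -9, and occurs in 11.8% of all stretches. The GC box GGGCGG occurred at 2 places in T and 2 in Gsc, and occurs in 32.7% of stretches. The letters CTTTGAT (TCF/LEF, 3.21% of stretches), CAGAC (SMAD, 42.2%) and AATNNACA (FOXH1, 10.9%) were not in these 3 stretches of 250 bases. No searched motif overlapped another in these matches.

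All 5 windows were rich in H3K27me3 in each of the 7 libraries of that mark. Levels are given as reads in the window over the mean of all autosomal tiles of the same length in the same library, so that 1 is the genome average, with a 95% Poisson interval for counting error only. Over the 7 libraries the level was between 2.50 and 12.4 in single windows. No window ranked below percentile 96.9 of its tiles in any of them, and T, Eomes, Gsc and Hand1 ranked at percentile 99.2 or above in each. Of the 37 bins, between 24 (LF2 EBs) and 31 (undifferentiated LF2 and E14 EBs) reached the 95th percentile of autosomal bins, a level that 5.14% to 6.74% of autosomal bins reached.

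**Figure D1:**
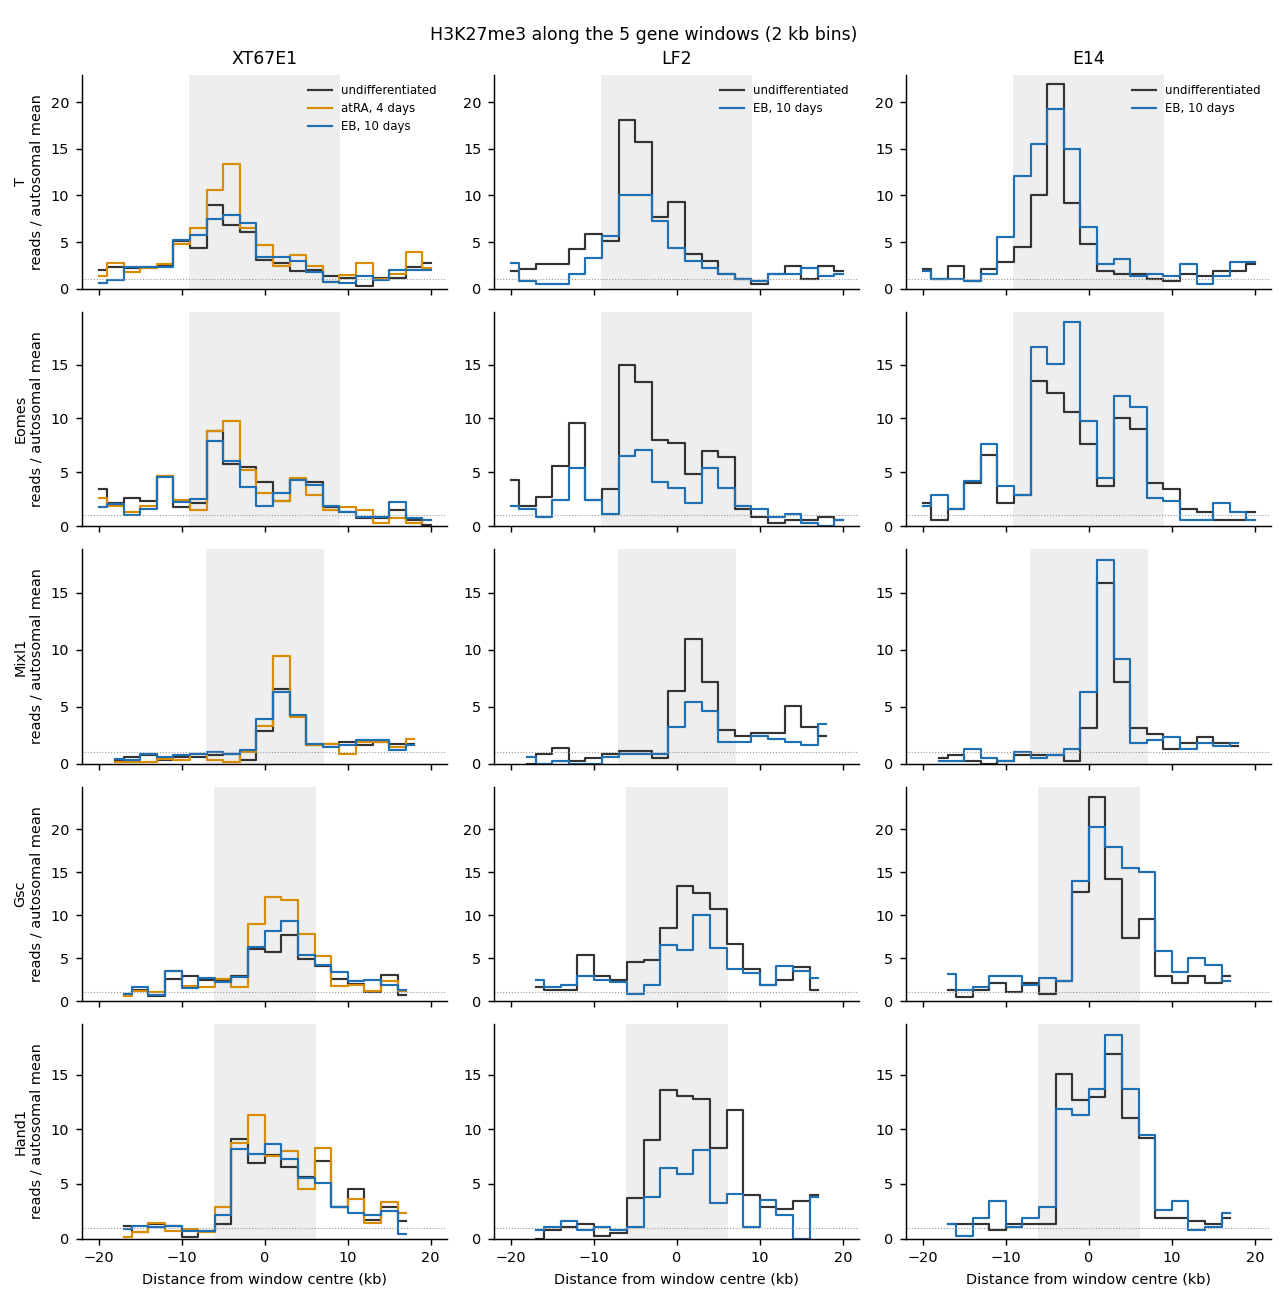
H3K27me3 along the 5 windows (grey) and 12 kb on each side, in 2 kb bins. The x axis is the distance from the window centre in kb and the y axis the reads in a bin over the mean of autosomal bins (dotted line at 1), with 1 library per line. Each gene has its peak inside the window. LF2 EBs lie below undifferentiated LF2 over most of the peaks, while E14 EBs lie near or above undifferentiated E14.

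At T, the window held 257 H3K27me3 reads in undifferentiated XT67E1, 351 with atRA and 275 in XT67E1 EBs. It held 245 in undifferentiated LF2, 167 in LF2 EBs, 214 in undifferentiated E14 and 293 in E14 EBs. Relative to the genome average these were 4.24, 5.79, 4.57, 7.42, 5.12, 6.41 and 8.76. The lowest T level was thus in undifferentiated XT67E1 and the highest in E14 EBs. With the 7 libraries summed, the bin with most reads was chr17:8626001-8628000 (445 reads), followed by its neighbour at 8624001 (388 reads). The neighbour was the higher one in undifferentiated XT67E1 (62 against 47 reads) and undifferentiated LF2 (68 against 59), and both held 37 reads in LF2 EBs. The marked stretch around the top bin, counted as neighbouring bins at or above the 95th percentile, was 12 to 22 kb long. It was shortest in undifferentiated E14.

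At Eomes, the window held 268, 272 and 239 H3K27me3 reads in XT67E1 undifferentiated, with atRA and as EBs. It held 252 and 130 in LF2 undifferentiated and as EBs, and 279 and 355 in E14. The levels were 4.42, 4.49, 3.97, 7.63, 3.99, 8.36 and 10.6. The 3 XT67E1 libraries and LF2 EBs had overlapping intervals (3.33 to 5.05 over the 4), and the other libraries were higher. Eomes had the widest span of stretch lengths, from 8 kb in LF2 EBs and undifferentiated and atRA-treated XT67E1 to 26 kb in E14 EBs. Its H3K27me3 was also split, with a main peak at chr9:118384001-118386000 and a second rise at chr9:118394001-118396000. Those bins held 370 and 220 reads over the 7 libraries, and the bin between at 118392001 held 110.

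At Mixl1, the window held 118, 137 and 132 H3K27me3 reads in the same XT67E1 libraries. It held 113 and 65 in LF2 undifferentiated and as EBs, and 118 and 144 in E14. The levels were 2.50, 2.90, 2.82, 4.40, 2.56, 4.54 and 5.53, below those of the other 4 genes in each library. The mark was narrow here, 6 kb in the median library and 10 kb at most. The first 3 bins of the window, from chr1:182618001 to 182624000, ranked between percentiles 39.7 and 45.2 of autosomal bins by reads summed over the 7 libraries. The top bin, chr1:182626001-182628000, ranked at 99.8, so the level of the Mixl1 window averages a sharp peak with unmarked bins.

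At Gsc, the window held 204, 309 and 234 H3K27me3 reads in XT67E1, 204 and 116 in LF2 and 232 and 276 in E14, in the same order. The levels were 5.04, 7.64, 5.83, 9.26, 5.33, 10.4 and 12.4. With the 7 libraries summed, the top bin was chr12:105710001-105712000 (417 reads), closely followed by the bin at 105712001 (404 reads). At Hand1, the window held 257, 296 and 271 reads in XT67E1, 227 and 106 in LF2 and 265 and 274 in E14. The levels were 6.35, 7.32, 6.75, 10.3, 4.87, 11.9 and 12.3. Hand1 had the highest level of the 5 genes in the 3 undifferentiated libraries. The separate intervals of Gsc and Hand1 overlapped in each of the 7 libraries, and the difference between these 2 genes was not tested.

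**Figure D2:**
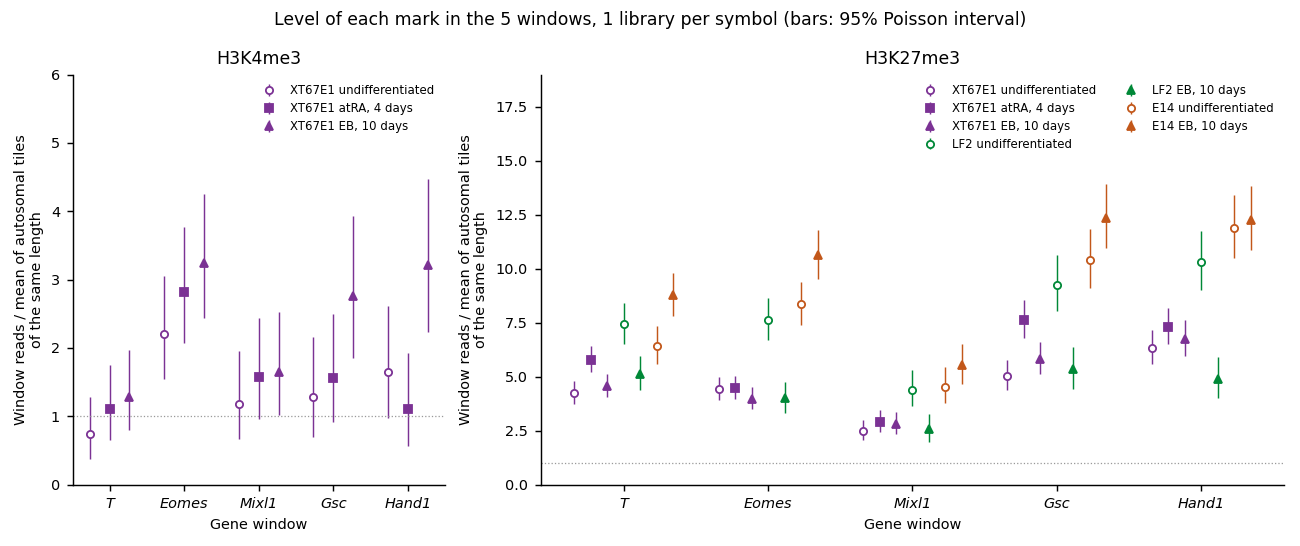
Level of H3K4me3 (left) and H3K27me3 (right) in the 5 windows. The y axis is the reads in a window over the mean of autosomal tiles of the same length, each symbol is 1 library and the bars are 95% Poisson intervals. H3K27me3 levels run from 2.50 (Mixl1, undifferentiated XT67E1) to 12.4 (Gsc, E14 EBs), and H3K4me3 levels from 0.736 (T, undifferentiated) to 3.25 (Eomes, EBs).

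The patterns over the 10 libraries were most alike between Gsc and Hand1, with a Euclidean distance of 0.786 between their log2 RPM values (reads scaled to the autosomal total). T and Gsc followed at 0.924 and T and Hand1 at 1.31. Eomes and Mixl1 were furthest apart at 3.62. These distances describe 10 libraries, and they include differences of level between windows of unequal length.

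Undifferentiated XT67E1 had less H3K27me3 in these windows than undifferentiated E14. The log2 ratio of RPM, computed with a pseudocount of 1 read, was -0.60 for T, -0.92 for Eomes, -0.86 for Mixl1, -1.05 for Gsc and -0.91 for Hand1. In 5 of 5 windows the exact counting interval lay below 0, as it did in 7.36% of 14 kb tiles genome-wide. By the 2-fold rule (a log2 ratio of at least 1 in size, with an interval that excludes 0), 1 of 5 windows was lower, Gsc, against 3.39% of tiles, and none was higher, as 2.6% of tiles were. H3K27me3-rich regions in general were lower in XT67E1. The 1699 tiles in the top 1% by summed H3K27me3 over the 7 libraries, a class added after the data were seen, had a median of -0.54 (quartiles -0.85 and -0.20), where all tiles had -0.03. The bin of Gsc with most reads differed most, with 39 reads in XT67E1 and 90 in E14 (log2 ratio -2.05, interval -2.65 to -1.51). It was picked from a sum that includes the E14 library, which favours a high count there. It was among 8 of 30 tested bins that met the 2-fold rule downwards, against 6.06% of all bins and 25.4% of the H3K27me3-richest 1% of bins, a share near that of the members. The count was 5 with background scaling. In undifferentiated LF2 against E14 the windows lay between -0.21 and 0.21, and 0 of 5 intervals excluded 0. No window met the 2-fold rule, where 2.4% of tiles were higher and 4.84% lower. In 2 kb bins 1 of 30 was higher, at Gsc (chr12:105704001-105706000, 17 reads in LF2 and 3 in E14), against 15.9% of all bins. The values depended on the scaling: background scaling, which sets libraries equal over sparsely covered bins, gave 0.51 for T, 0.17 for Eomes, 0.25 for Mixl1, 0.13 for Gsc and 0.09 for Hand1. The last 4 of these were negative under the main scaling. Called bins were 5 with background scaling and 3 with median scaling. Line and library cannot be told apart in these comparisons, nor can strain where XT67E1 is compared.

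H3K4me3 in undifferentiated XT67E1 rested on few reads in these windows. The reads were 12 for T, 36 for Eomes, 15 for Mixl1, 14 for Gsc and 18 for Hand1. Relative to the genome average this was 0.736 for T (interval 0.380 to 1.28), 2.21 for Eomes (1.55 to 3.05), 1.18 for Mixl1 (0.661 to 1.95), 1.29 for Gsc (0.703 to 2.16) and 1.65 for Hand1 (0.980 to 2.61). Among tiles of the same length these ranked at percentiles 46.2, 93.6, 80.8, 84.4 and 91.8, since most tiles lie below the mean (for T, a median of 12 reads and a mean of 16.3). Eomes alone had an interval above 1. At this depth H3K4me3 above the genome average was not detectable for the other 4 genes over the whole window. In 2 kb bins the 3 H3K4me3 libraries were summed, so atRA and EB reads are included. The top bin held 14 reads in T, 49 in Eomes, 18 in Mixl1, 26 in Gsc and 19 in Hand1. Among autosomal bins these ranked at percentiles 97.7, 99.1, 98.2, 98.6 and 98.3. Each was picked as the highest of its window, which favours a high rank. In undifferentiated cells alone the same bins held 2 reads in T, 11 in Eomes, 6 in Mixl1, 5 in Gsc and 4 in Hand1.

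With the libraries of each mark summed, the top bins of the marks coincided in T, Mixl1 and Gsc. In single states of XT67E1 this varied. At T both marks were highest at 8624001 in undifferentiated cells, with 3 and 62 reads. At Mixl1 the EB maximum of H3K4me3 was at chr1:182618001-182620000, with 8 reads against 4 in the summed top bin. At Gsc, H3K27me3 was highest 1 bin further along in undifferentiated cells (53 reads against 39) and EBs (64 against 56). In Hand1 they were neighbours, with H3K4me3 highest at chr11:57644001-57646000 and H3K27me3 at chr11:57646001-57648000. In Eomes the H3K4me3 maximum at chr9:118388001-118390000 lay further along than the H3K27me3 maximum at chr9:118384001-118386000, with 1 bin between them. Bins at or above the 95th percentile for both marks in the same condition numbered 8 of 37 in undifferentiated cells (21.6%, against 1.06% of autosomal bins), 8 with atRA (1.10% of autosomal bins) and 15 in EBs (40.5%, against 1.43%). The H3K4me3 percentile is reached with 4 reads, so single bins are near the counting limit. For H3K4me3 alone, 8, 10 and 17 of the 37 bins reached it in undifferentiated, atRA and EB cells. Because of ties at 4 reads, 8.89%, 9.18% and 10.3% of autosomal bins did so too. For H3K27me3 alone the counts were 25, 26 and 29 of 37, against 5.44%, 5.22% and 6.02%. The contrast for both marks together thus rests more on H3K27me3. Eomes and Hand1 had 3 such bins each in undifferentiated cells, Mixl1 and Gsc 1 each and T 0. In EBs, Eomes and Hand1 had 4 each, Gsc 3, and T and Mixl1 2 each. The stretch of 18 kb that follows the Eomes window held 56, 73 and 47 H3K4me3 reads in undifferentiated, atRA and EB cells. That is more than the Eomes window in 2 of 3 libraries, while its H3K27me3 was between 0.545 and 1.38 of the genome average. Golga4 is the next protein-coding gene after Eomes in the order of GRCm38.p6.

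**Figure D3:**
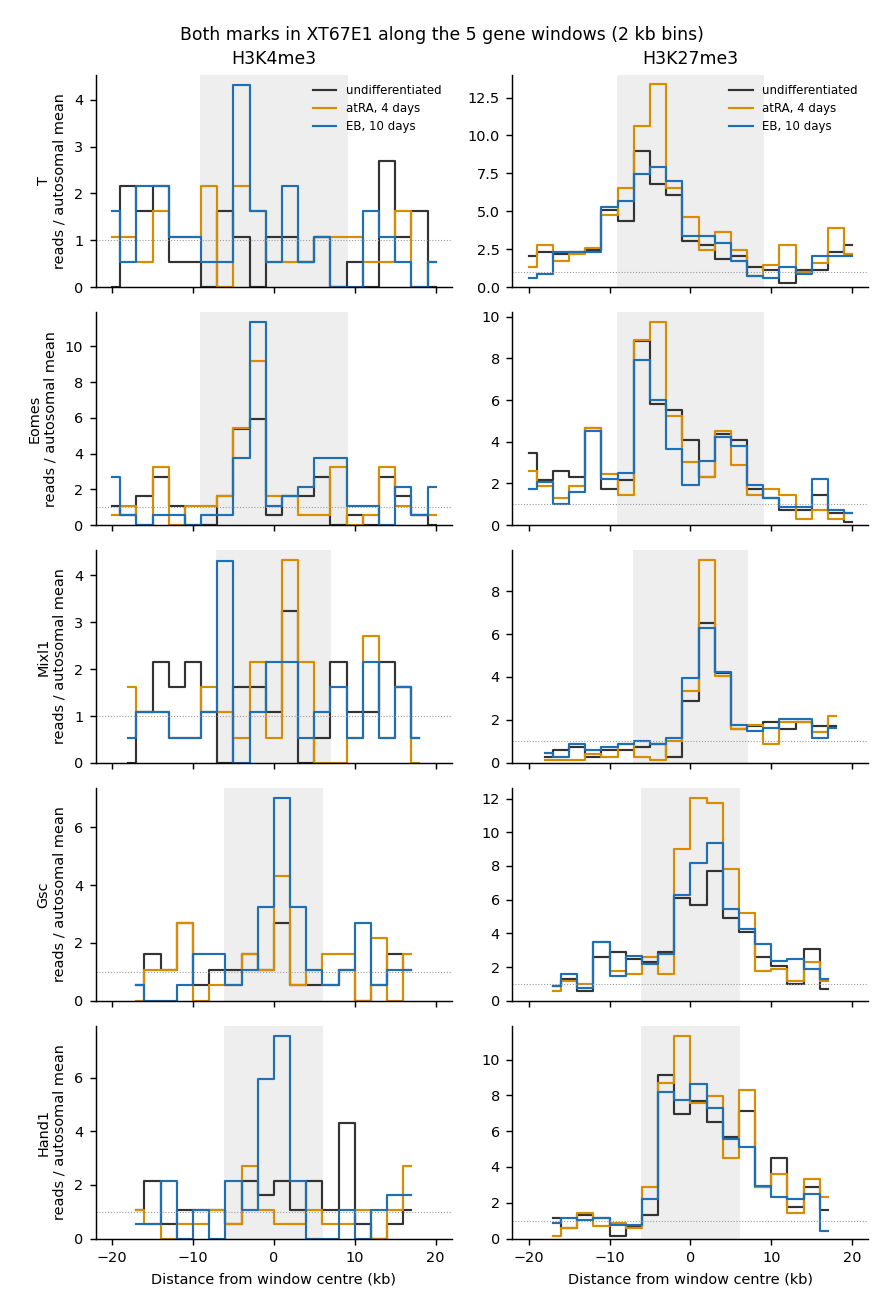
Both marks in XT67E1 along the 5 windows (grey) and 12 kb on each side, in 2 kb bins. The x axis is the distance from the window centre in kb, the y axis the reads in a bin over the mean of autosomal bins (dotted line at 1), and each line is 1 library. The H3K4me3 scale rests on few reads, with a mean of 1.85 per bin. In T, Eomes, Gsc and Hand1 the EB library has its H3K4me3 peak over the H3K27me3 stretch, and in Mixl1 outside it.

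After 4 days of atRA, H3K27me3 was higher at Gsc and T in XT67E1. Gsc went from 204 to 309 reads (log2 ratio 0.60, interval 0.34 to 0.86), and T from 257 to 351 (0.45, interval 0.21 to 0.69). The other windows had intervals that included 0, at 0.21 for Mixl1, 0.20 for Hand1 and 0.02 for Eomes. The interval lay above 0 in 2 of 5 windows and in 4.91% of tiles. No window met the 2-fold rule, as 0.485% of tiles did upwards and 1.53% downwards. The 5 values lay around the median of the top 1% class of tiles, 0.37 (quartiles 0.18 and 0.55), with Gsc above its upper quartile and Eomes below its lower one. Within T and Gsc, the largest difference in reads was in the bin that was highest over the 7 libraries. That sum includes the atRA library, which favours such a match. The Gsc bin chr12:105710001-105712000 held 39 reads undifferentiated and 83 with atRA (1.07, interval 0.53 to 1.68). It was the 1 bin of 33 tested that met the 2-fold rule upwards, a share close to the 3.66% of all bins. With background scaling 4 bins did so and with median scaling 3. The T bin chr17:8626001-8628000 held 47 and 92.

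H3K4me3 with atRA held 18 reads at T, 46 at Eomes, 20 at Mixl1, 17 at Gsc and 12 at Hand1. The log2 ratios to undifferentiated cells were 0.55, 0.35, 0.39, 0.26 and -0.55, and the intervals of all 5 included 0. Hand1 was the 1 window of 5 with fewer reads than before. No window was called, as 2.17% of tiles were upwards and 1.98% downwards.

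In XT67E1 EBs, H3K4me3 was higher at Gsc and Hand1. Gsc went from 14 reads undifferentiated to 30, a log2 ratio of 1.05 (interval 0.14 to 2.13), and Hand1 from 18 to 35, a log2 ratio of 0.92 (interval 0.10 to 1.87). The EB counts of the other windows were 21 at T, 53 at Eomes and 21 at Mixl1, with log2 ratios of 0.76, 0.55 and 0.46 and intervals that included 0. The interval lay above 0 in 2 of 5 windows and in 2.71% of tiles. By the 2-fold rule 1 of 5, Gsc, was higher, against 2.52% of tiles, and none was lower, as 1.44% of tiles were. The Gsc call was lost with a pseudocount of 5 reads (0.88), background scaling (0.92), median scaling (0.94) and a wider window (0.96). In tiles rich in H3K4me3 the direction was the opposite. The top 1% class for this mark had a median of -0.46 (quartiles -0.72 and -0.22). The median of the 5 windows was 0.76, where all tiles had 0.10. The 5 windows ranked at percentile 96.7 or below in each H3K4me3 library, so that class held more of the mark than they did.

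The EB log2 ratio at Hand1 was larger against atRA than against undifferentiated cells. However, atRA and undifferentiated cells did not differ beyond counting error there (log2 ratio -0.55, interval -1.77 to 0.55). Hand1 held 12 reads with atRA and 35 in EBs, a log2 ratio of 1.47 (interval 0.56 to 2.62), and it was the 1 of 5 windows called higher, against 2.04% of tiles by the 2-fold rule and 2.28% by the interval alone. None was lower, as 1.32% of tiles were. The reads came from neighbouring bins. The bin chr11:57644001-57646000 held 4 reads undifferentiated, 1 with atRA and 14 in EBs, and the bin chr11:57642001-57644000 held 3, 2 and 11. Against undifferentiated cells the first met the 2-fold rule upwards, 1 of 8 tested bins where 3.06% of all bins did, and against atRA both did, 2 of 9 where 3.29% of all bins did. Both bins reached the minimum of 10 reads through their EB counts, which favours a call upwards. These counts of bins are therefore descriptions and no support for a difference. Gsc held 17 and 30 reads in the same comparison (0.78, interval -0.09 to 1.77). Both comparisons use the same EB library. At T, the bin chr17:8626001-8628000 held 2, 4 and 8 H3K4me3 reads in the 3 states.

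H3K27me3 at these windows in XT67E1 EBs was close to that of undifferentiated cells. The log2 ratios were 0.11 for T, -0.15 for Eomes, 0.17 for Mixl1, 0.21 for Gsc and 0.09 for Hand1, and 0 of 5 intervals excluded 0, and no window met the 2-fold rule, as 1.53% of tiles did upwards and 0.388% downwards. In 2 kb bins 1 of 33 was lower, at Eomes (chr9:118390001-118392000, from 28 to 13 reads), a share close to the 4.15% of all bins, and the call was lost with a pseudocount of 5 reads. The widest interval, that of Mixl1, ran from -0.20 to 0.54, and differences within it were not detectable at this depth. Hand1 and Gsc thus had more H3K4me3 reads in EBs while their H3K27me3 intervals included no difference (-0.16 to 0.34 for Hand1 and -0.07 to 0.49 for Gsc). Compared with atRA, EBs had lower H3K27me3 at T (-0.34, interval -0.57 to -0.11) and Gsc (-0.39, interval -0.64 to -0.14), that is in 2 of 5 windows against 6.51% of tiles. Both lay within the quartiles (-0.44 and -0.08) of the H3K27me3-richest 1% of tiles, whose median was -0.26. None met the 2-fold rule, as 4.39% of tiles did upwards and 0.353% downwards.

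In LF2, H3K27me3 was lower in EBs at each of the 5 genes. T went from 245 to 167 reads (log2 ratio -0.53, interval -0.83 to -0.25), Eomes from 252 to 130 (-0.93, -1.25 to -0.63) and Mixl1 from 113 to 65 (-0.77, -1.24 to -0.33). Gsc went from 204 to 116 (-0.79, -1.14 to -0.46) and Hand1 from 227 to 106 (-1.07, -1.43 to -0.74). The interval lay below 0 in 5 of 5 windows and in 5.73% of tiles. By the 2-fold rule Hand1 was the 1 of 5 windows called lower, against 1.66% of tiles, and none was higher, as 3.93% of tiles were. Background scaling, which moved all values by -0.23, called 4 of 5, median scaling 2, and a narrower window none. The median of the 5 was -0.79, and they ranked between the 1.34th and the 11.7th percentile of all tiles, whose median was 0.09. H3K27me3-rich tiles were also lower in LF2 EBs, with a median of -0.29 in the top 1% class (quartiles -0.54 and -0.07). T lay at the lower quartile of that class and the other 4 windows lay below it.

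In 2 kb bins the difference in LF2 EBs varied from bin to bin. Of 27 bins with enough reads, 10 met the 2-fold rule downwards, against 12.5% of all bins. Hand1 had 4 of these bins, Gsc 3, Eomes 2, T 1 and Mixl1 0. These counts depend on the 2-fold cut and do not rank the genes. Mixl1 fell just short of it, with 41 and 20 reads in its top bin and 24 and 12 in the bin before. In the H3K27me3-richest 1% of bins the share was 15.0%. The count was 17 with background scaling and 5 with a pseudocount of 5 reads. The T bin chr17:8622001-8624000 held 19 and 21 reads. In Hand1, the bins from chr11:57640001 to 57646000 went from 34, 51 and 49 reads to 14, 24 and 22. In Eomes, the top bin chr9:118384001-118386000 went from 56 to 24. At T, the marked stretch was 18 kb in undifferentiated LF2 and 14 kb in EBs, and at Eomes 16 and 8 kb. The 18 kb before the T window went from 115 to 59 reads and that before the Eomes window from 137 to 70. The 12 kb after the Hand1 window went from 108 to 54 reads, and the 14 kb before the Mixl1 window from 16 to 7. The remaining flanks differed less or were higher, with 18 and 26 reads after Eomes, 15 and 23 before Hand1, and 56 and 50 before Gsc.

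In E14, H3K27me3 was higher in EBs at T and Eomes. T went from 214 to 293 reads (log2 ratio 0.45, interval 0.19 to 0.71) and Eomes from 279 to 355 (0.34, interval 0.11 to 0.58). Mixl1 (0.28), Gsc (0.25) and Hand1 (0.05) had intervals that included 0. The interval lay above 0 in 2 of 5 windows and in 4.39% of tiles, and no window met the 2-fold rule, as 1.44% of tiles did upwards and 2.63% downwards. The median of the 5 windows, 0.28, was near that of the top 1% class, 0.26 (quartiles -0.03 and 0.50). At T and Gsc the EB counts were higher in most bins, but not in the bin that was highest in undifferentiated cells. That bin was picked by its undifferentiated count, which favours a lower EB count there. The bins beside it were higher in EBs, at T from 38 to 59 and 35 to 57 reads and at Gsc from 48 to 53 and 54 to 68. The T bin chr17:8622001-8624000 went from 17 to 46 reads (1.38, interval 0.60 to 2.33), while the top bin at 8626001 went from 83 to 73. The Gsc bin chr12:105714001-105716000 went from 28 to 59 (1.05, interval 0.40 to 1.78), while the top bin at 105710001 went from 90 to 77. These were the 2 of 26 tested bins that met the 2-fold rule upwards, a share near the 9.11% of all bins, and 1 did so with a pseudocount of 5 reads. The marked stretch was 12 kb in undifferentiated cells and 16 kb in EBs at T, and 14 and 24 kb at Gsc.

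**Figure D4:**
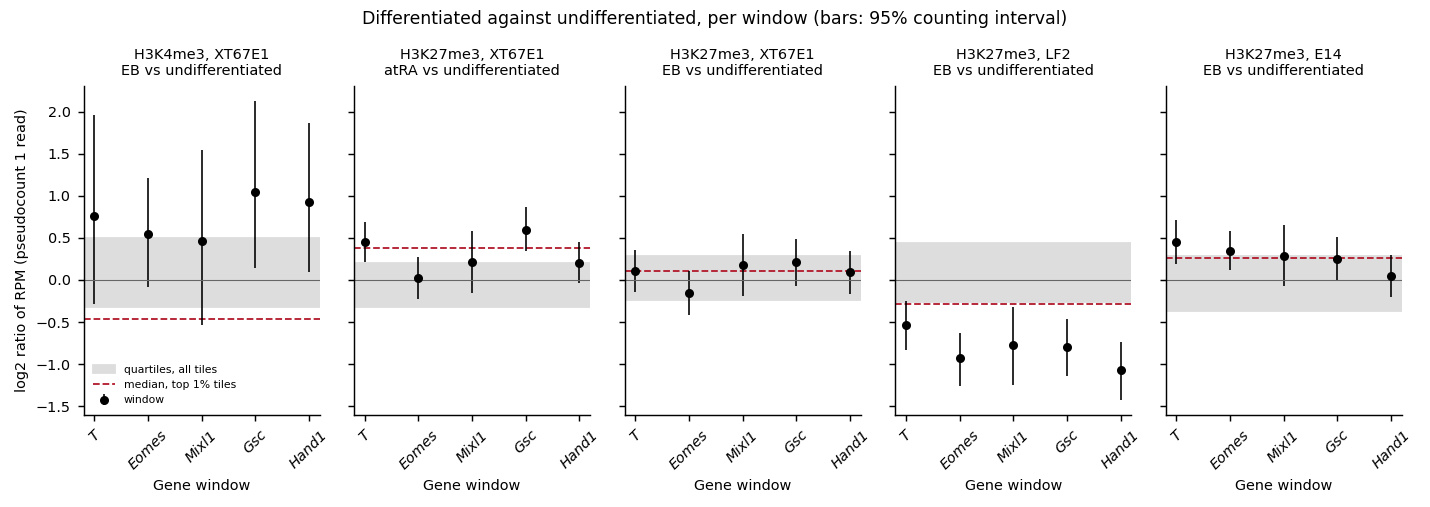
Log2 ratio of differentiated over undifferentiated cells in each window, in RPM with a pseudocount of 1 read, for 5 comparisons. Points are windows with their 95% counting interval, the grey band spans the quartiles of all 14 kb tiles and the dashed line is the median of the top 1% of tiles for that mark. The 5 LF2 points lie between -0.53 and -1.07, below the grey band, and the 5 E14 points between 0.05 and 0.45.

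At T and Eomes, LF2 and E14 differed in opposite directions, each beyond counting error. At Mixl1, Gsc and Hand1 the E14 interval included 0. The difference between the LF2 and E14 log2 ratios was -0.98 for T, -1.28 for Eomes, -1.05 for Mixl1, -1.04 for Gsc and -1.12 for Hand1, and the counting intervals of the 5 differences (normal approximation) excluded 0. XT67E1 exceeded LF2 by 0.64 to 1.16, with intervals that excluded 0 in the 5 windows. XT67E1 and E14 differed beyond counting error at Eomes (-0.50, interval -0.83 to -0.16) and not at the other 4. Each line has 1 library per condition, so a difference between lines and a difference between single libraries cannot be told apart.

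In a limma test over the 3 lines, blocked by line, none of the 5 windows passed the threshold for a difference in H3K27me3 between EBs and undifferentiated cells, which does not show that they were alike. The fit covered 173362 tiles and windows, of which 445 (0.257%) were called at a Benjamini-Hochberg adjusted p under 0.05, 0.164% higher and 0.0929% lower. The mean log2 change was 0.01 for T (SE 0.30, limma adjusted p = 0.998), -0.25 for Eomes (SE 0.31, limma adjusted p = 0.91), -0.11 for Mixl1 (SE 0.23, 0.96), -0.11 for Gsc (SE 0.28, 0.97) and -0.31 for Hand1 (SE 0.30, 0.86). At an unadjusted p under 0.05, 0 of 5 windows were called, against 8.09% of all tiles and windows. The spread between lines was larger than these means, with an SD of 0.50 for T and 0.66 for Hand1 (n = 3 lines). Intervals for the mean were wide, from -0.91 to 0.28 for Hand1 and from -0.60 to 0.61 for T. A mean change of up to about that size was not excluded. Their width rests on a spread pooled over tiles, and they do not bound single lines, as LF2 had -1.07 at Hand1. The sign at 4 of 5 genes changed when LF2 was left out, with means of 0.10 for Eomes, 0.23 for Mixl1, 0.23 for Gsc and 0.07 for Hand1 and a smallest limma adjusted p of 0.999 over the 5 windows. In 2 kb bins, 34 of the 37 had enough reads and 0 were called by limma, where 0.0363% of all bins were, so the count says little about these bins. None had an unadjusted p under 0.05.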

How the data were processed

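H3K4me3 and H3K27me3 were measured in 10 libraries, grouped by their titles. The deposited files list intervals with a start and end (other than that, no value per row), each 200 bp, without strand, on mm9 per the submitters' processing notes; for aligner, filters and extension the sources used here give nothing. No interval was repeated within a file. Here, interval midpoints were counted in the given windows, in 2 kb bins and in 14 kb tiles of the autosomes, and scaled to autosomal reads (2153974 to 2156836 for H3K4me3, 4309553 to 8021002 for H3K27me3). With equal totals a stronger pull-down overall cannot be seen. Log2 ratios used a pseudocount of 1 read. Intervals were exact (conditional binomial, Clopper-Pearson, 95%; Poisson for levels) and cover counting error only. Called features needed 2-fold, an interval excluding 1 and at least 10 (H3K4me3) or 20 (H3K27me3) reads in the 2 libraries.

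Counts of intervals that exclude 0 and the class of H3K27me3-rich or H3K4me3-rich tiles were added after the data were seen and are descriptions. The 3-line test used limma 3.58.1 in R 4.3.3, two-sided, with an intensity trend and at least 60 reads over 6 libraries, on tiles of autosomes and X in which tiles overlapping a window were replaced by it. Its p-values rest on 1 library per line and condition, with the spread pooled over tiles (57.5 degrees of freedom). Libraries were paired because they come from the same cell line, whatever the size of the correlation: deviations from condition means correlated at 0.22 (XT67E1), 0.0987 (LF2) and 0.28 (E14). The test and the size rule were tested on simulated data. All 5 windows are reported; named bins are the top bin of each mark and bins past the 2-fold rule, and further bins were chosen after their values were seen. Other genes of the pathway and cell type markers had been listed but could not be placed without an mm9 annotation, and are not analysed here. Members and lists were chosen with earlier results of these data known.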

Additional observations from a re-analysis of the deposited data

Results flagged for a closer look

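At T and Eomes the H3K27me3 difference between EBs and undifferentiated cells had opposite directions in LF2 and E14, each beyond counting error. The log2 ratios for LF2 and E14 were -0.53 and 0.45 at T, a difference of -0.98, and -0.93 and 0.34 at Eomes, a difference of -1.28. Each line has 1 library per condition, so the difference between lines was not tested against replicates. The LF2 library pair also had a median of -0.29 over the H3K27me3-richest 1% of tiles, against 0.26 in E14. The part of this general difference in the result was not tested.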

How the results depend on the processing

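The number of windows called by the 2-fold rule was 1 of 5 for H3K4me3 in EBs against undifferentiated XT67E1, and 0 with a pseudocount of 5 reads, background scaling, median scaling or a window widened by 2 kb, and 2 with a window narrowed by 2 kb. For H3K27me3 in LF2 EBs it was 1, and 4 with background scaling, 2 with median scaling and 0 with the narrowed window. For undifferentiated XT67E1 against E14 it was 1, and 0 with background scaling. The other 7 comparisons of 2 libraries kept their count under the 6 alternatives. No called window changed sign under them. The 10 called 2 kb bins of LF2 were 17 with background scaling and 5 with a pseudocount of 5 reads, and the 8 of XT67E1 against E14 were 5 with background scaling. With no read minimum, called H3K4me3 bins were 3 (not 1) in EBs and 1 (not 0) with atRA, both against undifferentiated cells. Background scaling moved log2 ratios by between -0.25 (EBs against atRA, H3K27me3) and 0.30 (undifferentiated LF2 against E14).

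In the limma test over 3 lines, 0 of 5 windows were called under each alternative run, the lowest adjusted p being 0.62 (without E14). The value of T changed sign with median scaling (-0.0142) and in the narrowed window (-0.0704). Leaving out 1 line gave -0.21 to 0.28 for T, -0.54 to 0.10 for Eomes, -0.30 to 0.23 for Mixl1, -0.29 to 0.23 for Gsc and -0.51 to 0.0669 for Hand1. With no replicate block 0 of 5 windows were called (11 tiles in all, against 445), and with limma voom 0 of 5 (691 tiles). Tiles called were 738 without E14, 289 without LF2 and 250 with no read minimum. The depth limits H3K4me3 most, with 12 to 53 reads in a window.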
